A study of Mus musculus with 15 samples.

Results

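Transcript levels of 10 genes of bone morphogenetic protein (BMP) signalling were followed in mouse cerebellar granule neuron precursors and in medulloblastoma cells. The genes were taken by name from the gene count table: the ligands Bmp2, Bmp4, Bmp6 and Bmp7, the receptors Bmpr1a, Bmpr1b and Bmpr2, and the intracellular proteins Smad1, Smad5 and Smad6. All 10 were found among the 21889 genes of the table, and all 10 were among the 15259 genes with enough counts to be tested.

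Poly(A) RNA was sequenced from 15 libraries, 3 in each of 5 groups. Granule neuron precursors, the dividing cells from which cerebellar granule neurons arise, were taken in the embryo at E15.5 (genotype Math1-GFP) and on postnatal days 1, 7 and 14 (P1, P7 and P14, genotype WT). Math1 is another name of Atoh1, the transcription factor gene that marks these cells, and no other group carries the GFP allele, so age and reporter cannot be told apart at E15.5. The tumour group, MB, consists of medulloblastoma cells with the genotype Ptch1 heterozygous, a loss in the receptor that holds Sonic hedgehog signalling in check, and its labels give no age. Every group was purified on Percoll, and the labels do not say whether animals or tumours were pooled, so that p-values measure the spread between libraries.

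BMPs are secreted proteins that bring together type I and type II receptor kinases at the cell surface. The type I kinase phosphorylates Smad1, Smad5 and Smad9, which join Smad4 and enter the nucleus, where Id and Msx genes are among the classic targets, and Smad6 and Smad7 are targets that damp the pathway in return. In the cerebellum, BMPs from the roof plate help to specify granule neuron precursors at the rhombic lip, and Bmp2 and Bmp4 are known to oppose the proliferation that Sonic hedgehog drives in these cells.

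Totals ran from 12597472 to 43443132 counts in genes per library. Levels below are CPM, the read count scaled to the TMM-adjusted size of its library, and a gene was called changed at a false discovery rate (FDR) under 0.05 over all genes tested. Atoh1 was at 124 to 138 CPM at E15.5, 10.9 to 13.1 CPM at P14 and 236 to 322 CPM in MB. Ptch1 was at 252 to 340 CPM at P7 and 202 to 349 CPM in MB, and these counts do not tell its alleles apart. The libraries fell into 2 sets by how the gene table counted some genes, with Tsnax at 0% to 0.273% of its transcript count in 6 libraries (E15.5 replicates 1 and 3, all of P7 and MB replicate 1) and at 92.4% to 94.8% in the other 9. The same ratio of the 10 genes did not separate the sets: it was 98.7% to 99.6% against 98.9% to 99.5% for Bmpr1a, for example. No P1 or P14 library shared a set with P7. Age and counting set therefore cannot be told apart in P7 against P1 or in P14 against P7. Neither comparison could be made within a single set. Messenger RNA of the 4 Y-linked genes examined, Uty, Kdm5d, Ddx3y and Eif2s3y, was at 12.03 CPM or more in every precursor library and came to 2 counts in all of MB, so that the sex of the animals and the tumour cannot be told apart in any comparison with MB.

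The 10 genes fell into an abundant and a scarce tier. Per length of the annotated transcript, Bmpr1a, Bmpr2, Smad1 and Smad5 had group means of 18.8 to 32.4 CPM per kb in every group, while no ligand exceeded a group mean of 7.18 CPM per kb. In E15.5 the order was Smad1 (26.6), Bmpr1a (21.3), Smad5 (21.0), Bmpr2 (20.2), Bmp6 (4.45), Bmpr1b (1.97), Bmp7 (1.41), Smad6 (0.625), Bmp2 (0.577) and Bmp4 (0.0566 CPM per kb). Bmpr1a, Smad5 and Bmpr2 overlapped in sequence, as did Bmpr1b with Bmp7 and Smad6 with Bmp2, while Smad1 lay above Bmpr1a and the step from Bmpr2 down to Bmp6 did not overlap. In MB the order was Bmpr1a (32.4), Smad1 (26.1), Smad5 (20.7), Bmpr2 (20.3), Bmpr1b (1.70), Bmp7 (1.05), Smad6 (0.141), Bmp4 (0.119), Bmp6 (0.107) and Bmp2 (0.0990 CPM per kb), with the last 4 overlapping in sequence. The lengths are those of 1 annotated transcript for each gene, and the order within a tier moves with the untranslated ends that annotation includes.

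**Figure D1:**
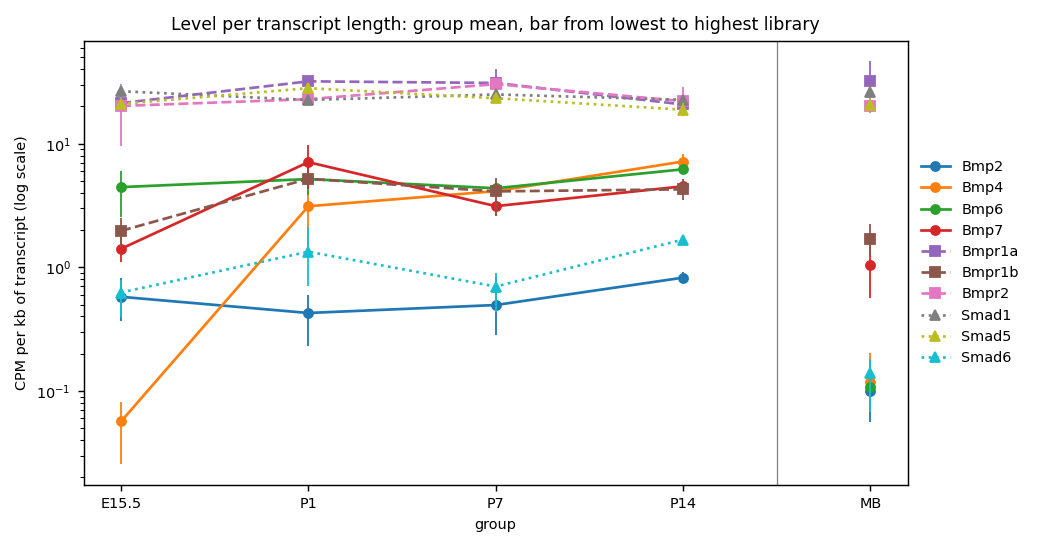
Level of each gene per kb of its annotated transcript, in CPM per kb on a log axis, by group. Symbols are means of 3 libraries, vertical bars run from the lowest to the highest library, and lines join the ages only; Bmpr1a, Bmpr2, Smad1 and Smad5 stay between 18.8 and 32.4 while Bmp4 at E15.5 and 4 genes in MB lie below 0.2.

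The make-up of the ligands differed from group to group. The 4 ligands summed to 6.50 ± 2.30 CPM per kb in E15.5 libraries and to 15.8 ± 4.37 in P1 libraries, then to 12.1 ± 1.60 (P7), 18.7 ± 1.81 (P14) and 1.38 ± 0.661 (MB; SD, n = 3 each). Bmp6 made up 67.7% ± 4.18 of that sum at E15.5 and 33.2% ± 1.83 at P14, whereas Bmp7 made up 76.4% ± 3.70 in MB and Bmp6 only 7.79% ± 1.21 there. Bmp4 went from 0.832% ± 0.176 of the ligand sum at E15.5 to 38.3% ± 1.44 at P14. The 3 receptors summed to 43.5 ± 12.8 CPM per kb at E15.5, 65.5 ± 7.81 at P7 and 54.3 ± 16.7 in MB, ranges that overlap between the last pair. The ligand sum leaves out Bmp5, which averaged 8.46 CPM in MB (0.873 to 22.0 CPM), beside 3.79 CPM for Bmp7 (2.06 to 5.47 CPM). At P7 and P14 Bmp5 averaged 24.6 and 23.8 CPM. These Bmp5 and Bmp7 levels are not per length. No test was made of the shares.

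Upstream sequence is shown for the genes that were called both higher at P1 than at E15.5 and lower in MB than at P7, where a RefSeq window was given and met no annotated exon. These were Bmp4, Smad6 and Bmpr1b, and for Bmpr1b the window is the upstream start whose downstream bases lie in an annotated transcript. Each holds the 250 bases before the RefSeq start in GRCm38.p6, on the minus strand, 5′ to 3′. Capitals mark GTCT or its reverse complement AGAC, the short element bound by Smad proteins.

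Bmp4, chr14:46390670-46390919: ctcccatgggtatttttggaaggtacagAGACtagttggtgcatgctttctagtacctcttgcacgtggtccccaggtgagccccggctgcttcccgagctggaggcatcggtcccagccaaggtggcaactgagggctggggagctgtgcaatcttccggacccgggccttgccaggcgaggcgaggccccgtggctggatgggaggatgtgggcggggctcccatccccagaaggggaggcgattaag

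Smad6, chr9:64022060-64022309: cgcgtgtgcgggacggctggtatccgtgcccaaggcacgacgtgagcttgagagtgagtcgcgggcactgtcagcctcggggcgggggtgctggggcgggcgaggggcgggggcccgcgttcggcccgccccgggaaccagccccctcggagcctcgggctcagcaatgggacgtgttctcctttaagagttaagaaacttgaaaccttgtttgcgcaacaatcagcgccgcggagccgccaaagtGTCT

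Bmpr1b, chr3:141982265-141982514: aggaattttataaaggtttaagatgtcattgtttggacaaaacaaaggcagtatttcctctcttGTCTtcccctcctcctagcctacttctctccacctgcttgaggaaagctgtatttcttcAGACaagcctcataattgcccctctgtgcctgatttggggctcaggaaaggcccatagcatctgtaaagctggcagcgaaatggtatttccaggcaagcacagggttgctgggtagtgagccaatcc

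The Bmp4 and Smad6 windows hold 1 such match each and the Bmpr1b window holds 2. Among 27025 RefSeq windows of this length, 83.0% hold at least 1 match on either strand. The longer GC-rich element bound by BMP-activated Smads, GGCGCC, is in none of the 3 windows and in 9.54% of all windows. The windows differ in base composition, with a GC content of 63.2% for Bmp4, 66.8% for Smad6 and 46.8% for Bmpr1b. A match here describes the letters and is not evidence of binding.

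Between E15.5 and P1, 5 of the 10 genes rose and none fell. They were the ligands Bmp4 and Bmp7, the receptor Bmpr1b and the Smads Smad5 and Smad6. Over all genes tested 46.3% were called in this comparison, 25.4% as higher and 20.9% as lower. The median log2 change was 0.51 over the 10 genes and 0.03 over all genes. Libraries did not overlap for 6 of the 10, against 57.8% of all genes.

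Bmp4, a ligand that promotes granule neuron differentiation, lies on the minus strand of chr14:47003195-47010344 in mm9 (ENSMUSG00000021835). It was at 0.131, 0.167 and 0.0525 CPM in the 3 E15.5 libraries, which is 7 counts in all. It was at 2.62, 7.95 and 8.44 CPM at P1, at 9.24, 6.32 and 9.78 CPM at P7, and at 13.6, 16.5 and 13.6 CPM at P14. Every postnatal library lay above every E15.5 library, and every P14 library above every P1 and P7 library. The ratio of scaled counts of P1 to E15.5 was 67.5, with an exact 95% interval of 32.5 to 169 that covers counting error only, and the fitted log2 change was 5.93 ± 0.58 (SE; FDR 2.27e-06). The P1 replicates themselves differed by more than 3-fold, with replicate 1 lowest. From P7 to P14 the log2 change was 0.79 ± 0.39 and was not called (FDR 0.197), and from P1 to P14 it was 1.20 ± 0.39 (FDR 0.0671). The last value passed with DESeq2 (FDR 0.0273) and without P1 replicate 3 (log2 change 1.46, FDR 0.0371).

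Bmp7, a ligand also made by meninges and choroid plexus, lies on the minus strand of chr2:172693513-172765822 (ENSMUSG00000008999). It was at 4.97, 6.43 and 3.99 CPM at E15.5 and at 25.5, 34.9 and 15.1 CPM at P1. It then stood at 11.8, 9.08 and 12.2 CPM at P7 and at 15.6, 17.9 and 14.6 CPM at P14. The P1 libraries were all above the E15.5 libraries, by 2.31 ± 0.36 on the log2 scale (FDR 0.000123), and P1 replicate 2 was highest. The P7 libraries were all below the P1 libraries, but the log2 change of -1.19 ± 0.34 was not called (FDR 0.0671). It passed with DESeq2 (FDR 0.0108) and without P1 replicate 3 (log2 change -1.45, FDR 0.0239).

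Bmp6, a ligand best known for iron control in liver, was not called between any of the precursor ages compared. It lies on the plus strand of chr13:38437585-38591597 (ENSMUSG00000039004). It was at 15.4, 19.6 and 8.06 CPM at E15.5, 12.02, 20.1 and 15.4 CPM at P1, 14.3, 13.02 and 14.3 CPM at P7, and 20.3, 21.4 and 17.3 CPM at P14. The ages overlapped except that P14 lay above P7, and the test over the 4 ages did not call it (FDR 0.427). A second transcript model overlaps its exons on the same strand, and the gene count was 124% to 140% of the count of the transcript matched to the gene.

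Bmp2, which promotes granule neuron differentiation in culture, was per length the scarcest of the 4 ligands at P1, P7 and P14. It lies on the plus strand of chr2:133377895-133388621 (ENSMUSG00000027358). It was at 1.92, 2.92 and 1.31 CPM at E15.5, 0.815, 1.63 and 2.11 CPM at P1, 3.01, 1.27 and 1.00 CPM at P7, and 2.73, 3.25 and 2.81 CPM at P14. All 4 ages overlapped with a neighbour and the 4-age test did not call it (FDR 0.287). Its largest fitted step between ages was P14 over P1, 0.94 ± 0.47 on the log2 scale (FDR 0.209). Every P14 library lay above every P1 library in that step.

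**Figure D2:**
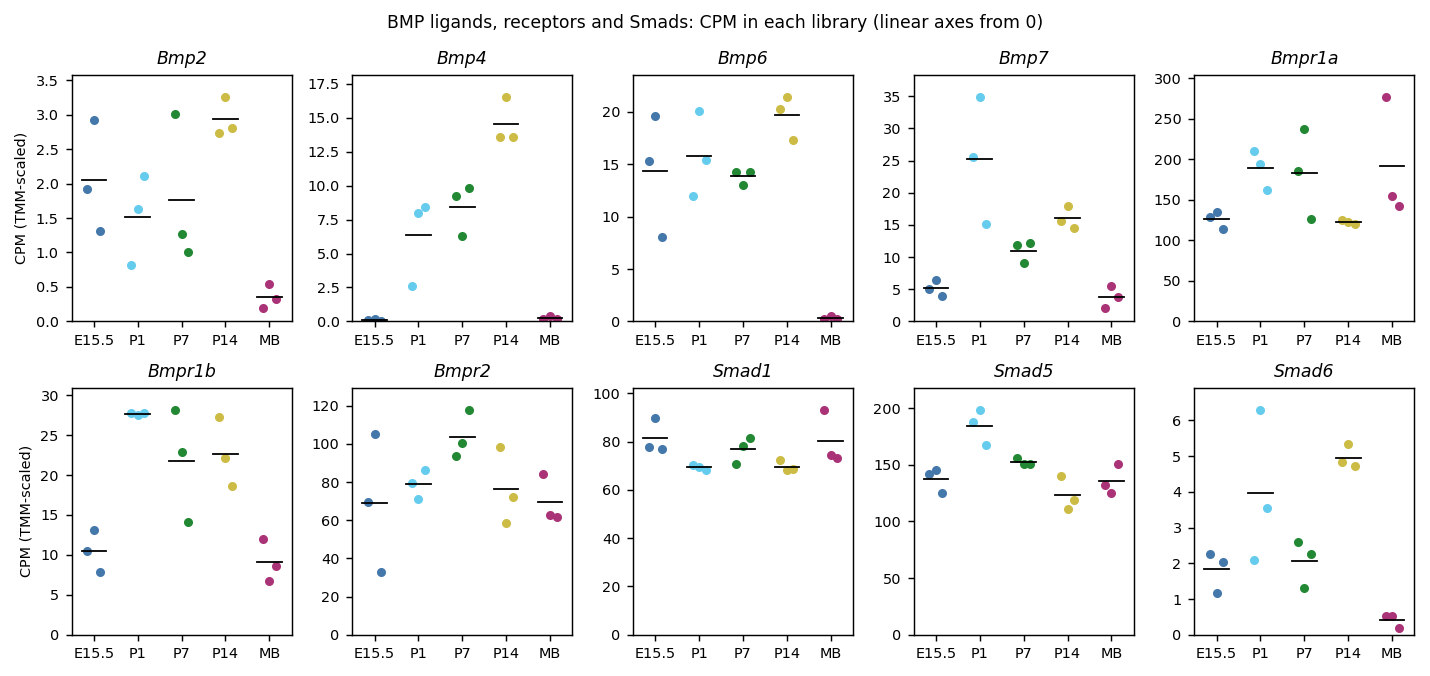
CPM of each gene in every library, on linear axes that start at 0 and differ between genes. Points are the 3 libraries of a group, in replicate order, and the black line is their mean; Bmp2, Bmp4, Bmp6 and Smad6 lie near 0 in all 3 MB libraries, while Bmpr2 and Smad1 in MB overlap E15.5.

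Of the receptors, Bmpr1b, a type I receptor kinase, was called between E15.5 and P1, where age and reporter cannot be told apart. Bmpr1b was not called in P7 against P1, P14 against P7 or P14 against P1. It lies on the minus strand of chr3:141500100-141645228 (ENSMUSG00000052430). It was at 10.5, 13.1 and 7.85 CPM at E15.5, 27.8, 27.5 and 27.7 CPM at P1, 28.1, 22.9 and 14.1 CPM at P7, and 27.3, 22.2 and 18.6 CPM at P14. Every postnatal library lay above every E15.5 library, and the log2 change from E15.5 to P1 was 1.41 ± 0.29 (FDR 0.0011). Per length it made up 8.39% ± 1.37 of the type I receptor sum at E15.5 and 17.0% ± 2.34 at P14 (SD, n = 3 each).

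Bmpr1a, the more abundant type I receptor (minus strand, chr14:35223920-35315873, ENSMUSG00000021796), was at 129, 134 and 114 CPM at E15.5, 210, 194 and 163 CPM at P1, 186, 238 and 126 CPM at P7, and 126, 122 and 120 CPM at P14. Its P1 libraries lay above its E15.5 and P14 libraries without overlap. The changes were not called, at 0.59 ± 0.25 on the log2 scale for P1 against E15.5 (FDR 0.0661) and -0.62 ± 0.25 for P14 against P1 (FDR 0.123). Within a single counting set the second of these passed (log2 change -0.62, FDR 0.0424), and with the 2 groups fitted alone both passed (FDR 0.0216 and 0.0205).

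Bmpr2, the type II receptor (plus strand, chr1:59821481-59927703, ENSMUSG00000067336), was at 69.6, 105 and 33.1 CPM at E15.5, a spread of more than 3-fold with replicate 3 lowest. It was at 79.6, 71.2 and 86.4 CPM at P1, 93.4, 101 and 118 CPM at P7, and 98.5, 58.5 and 72.4 CPM at P14. It was called in no comparison. The 95% interval of the log2 change of P1 against E15.5 was -0.49 to 0.88, so that a change of a size called for Smad5 is not shut out.

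Among the Smads, Smad5, a signal-carrying Smad (plus strand, chr13:56804371-56843738, ENSMUSG00000021540), peaked at P1. It was at 142, 145 and 125 CPM at E15.5, 188, 198 and 167 CPM at P1, 156, 151 and 151 CPM at P7, and 140, 111 and 119 CPM at P14. The P1 libraries lay above those of every other age. The log2 change was 0.43 ± 0.14 for P1 against E15.5 (FDR 0.0243) and -0.58 ± 0.14 for P14 against P1 (FDR 0.0257). The rise was not called within a single counting set (0.35, FDR 0.206), where E15.5 replicate 2 alone stands for E15.5 and is assumed to vary like the other groups, with the 2 groups fitted alone (0.45, FDR 0.0548), or without E15.5 replicate 3 (0.32, FDR 0.108), P1 replicate 1 (0.41, FDR 0.0647) or P1 replicate 2 (0.37, FDR 0.0943). The fall was not called without P1 replicate 1 (FDR 0.126), P1 replicate 2 (FDR 0.142), P14 replicate 2 (FDR 0.123) or P14 replicate 3 (FDR 0.108).

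Smad1, the partner of Smad5 (minus strand, chr8:81862294-81923417, ENSMUSG00000031681), ran only from 68.1 to 93.0 CPM over all 15 libraries and was called in no comparison. Its 95% intervals were -0.55 to 0.08 on the log2 scale for P1 against E15.5 and -0.25 to 0.38 for MB against P7. Per length it made up 55.9% ± 1.80 of the sum of Smad1 and Smad5 at E15.5, 44.6% ± 1.84 at P1, 54.7% ± 2.21 at P14 and 55.6% ± 4.50 in MB (SD, n = 3 each).

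Smad6, the inhibitory Smad (minus strand, chr9:63800883-63869866, ENSMUSG00000036867), was at 2.27, 1.17 and 2.05 CPM at E15.5, 2.10, 6.28 and 3.54 CPM at P1, 2.60, 1.30 and 2.27 CPM at P7, and 4.82, 5.33 and 4.71 CPM at P14. Its P1 libraries overlapped its E15.5 libraries, and its P14 libraries lay above all of P7. The rise to P1, 1.09 ± 0.43 on the log2 scale, was just inside the threshold (FDR 0.0469). It was lost in 10 of 14 alternatives, with a value of 0.60 (FDR 0.290) without P1 replicate 2. The other libraries whose removal lost it were P1 replicate 3 (FDR 0.0647) and E15.5 replicates 1 (FDR 0.0596), 2 (FDR 0.14) and 3 (FDR 0.0935). The log2 change of P14 against P7 was 1.27 ± 0.42 and was not called (FDR 0.0652), but passed with DESeq2 (FDR 0.0212).

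The test for any difference among the 4 ages called the same 5 genes that rose to P1: Bmp4 (FDR 2.62e-06), Bmp7 (0.00054), Bmpr1b (0.00508), Smad5 (0.0154) and Smad6 (0.0205). It called 55.7% of all genes. Smad5 was lost in this test without P1 replicate 1 (FDR 0.0539), P1 replicate 2 (0.0717), P14 replicate 2 (0.0522) or P14 replicate 3 (0.0513), and Smad6 without P14 replicate 2 (0.0551). Bmpr1a (FDR 0.0628) passed it without P7 replicate 3 (0.0198) and with DESeq2 (0.00595). After P1 few of the 10 genes were called. P7 against P1 called 0 of them and 3.15% of all genes (1.40% higher and 1.74% lower), with 2 at an unadjusted p under 0.05 (Bmp7 and Smad6) and 1 called by DESeq2 (Bmp7). P14 against P7 called 0 of them and 10.3% of all genes (5.81% higher and 4.51% lower), with 3 at an unadjusted p under 0.05 (Bmpr1a, Smad5 and Smad6) and 1 called by DESeq2 (Smad6). With those groups fitted alone, Bmp4 (FDR 0.0232), Bmp6 (0.0381) and Smad6 (0.0123) passed as higher at P14. P14 against P1 called Smad5 alone, as lower, where 8.94% of all genes were called, 3.63% as higher and 5.31% as lower. Libraries did not overlap for 4 of the 10 genes in P7 against P1, 6 in P14 against P7 and 5 in P14 against P1, beside 28.7%, 46.3% and 51.4% of all genes.

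Markers of other cell types moved with the step from E15.5 to P1. All 8 endothelial markers, all 9 of pericytes and meningeal fibroblasts, all 8 astroglial, all 10 oligodendrocyte lineage, 8 of 9 microglial and 6 of 7 choroid plexus markers were called higher at P1. The summed level of the endothelial list was 12.2 to 35.7 CPM at E15.5 and 326 to 815 CPM over the postnatal libraries. That of pericytes and meningeal fibroblasts was 23.8 to 41.4 CPM and 396 to 1084 CPM, and that of astroglia 309 to 441 CPM and 2137 to 4755 CPM. None of these markers was at 0 throughout E15.5. Other lists had calls in both directions: of 7 GABAergic interneuron markers 5 were lower and 2 higher, of 7 Purkinje cell markers 2 lower and 1 higher, and of 3 rhombic lip and roof plate markers 2 lower and 1 higher. In these bulk samples, fewer cells of a type and less RNA per cell cannot be told apart, and the part of these cells in the rises of Bmp4, Bmp7, Bmpr1b, Smad5 and Smad6 was not tested. The choroid plexus list varied most, from 408 CPM in P1 replicate 1 to 10482 CPM in P1 replicate 2. That library also held the highest Bmp6, Bmp7, Smad5 and Smad6 of the P1 libraries. Bmpr1a, Bmpr1b and Smad1 were highest in P1 replicate 1, and Bmp2, Bmp4 and Bmpr2 in P1 replicate 3. P1 replicate 3, with a choroid plexus sum of 3987 CPM, held the lowest Bmp7 of the P1 libraries, at 15.1 CPM, against 25.5 CPM in replicate 1. The choroid plexus list was at 52.1 CPM in P7 replicate 1, where Bmp4 was at 9.24 and Bmp7 at 11.8 CPM.

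**Figure D3:**
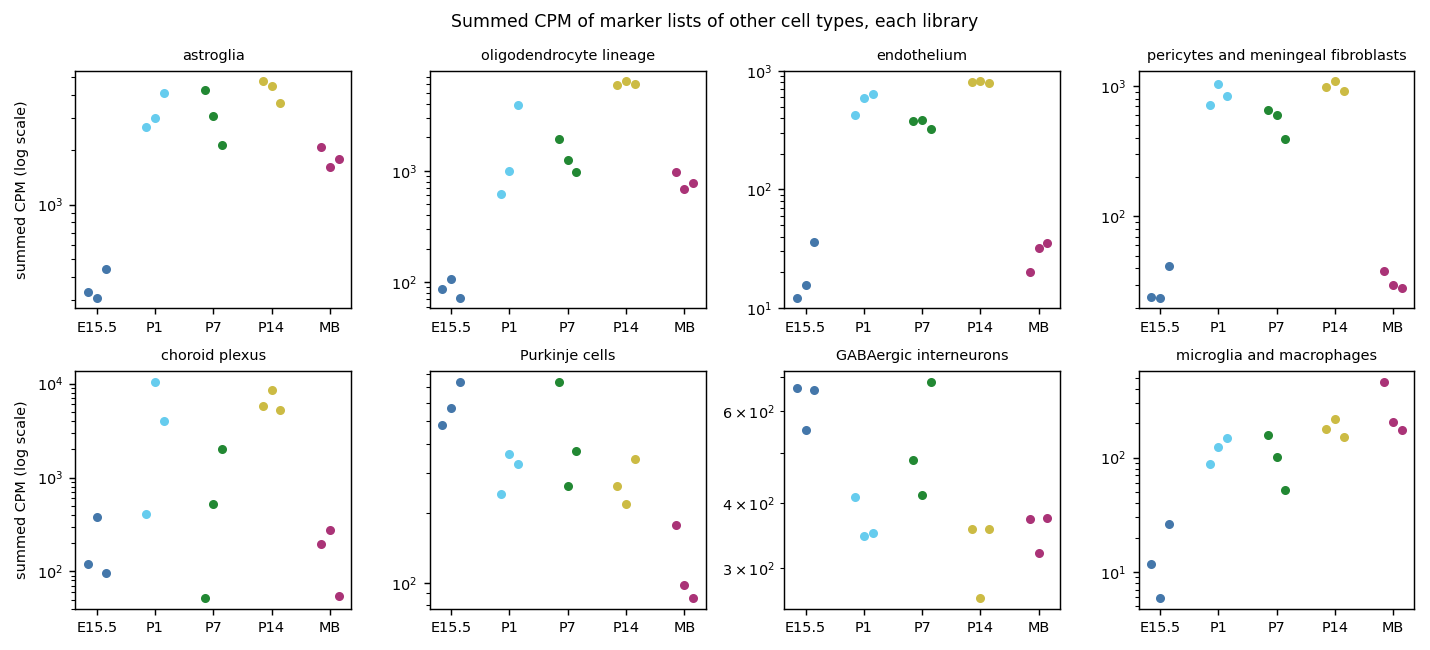
Summed CPM of 8 marker lists of other cell types in each library, on log axes that differ between panels. Points are the 3 libraries of a group in replicate order; endothelial and pericyte or meningeal lists are as low in MB as at E15.5 and more than 8 times higher in every postnatal library.

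In medulloblastoma cells all 4 ligands, Bmpr1b and Smad6 were lower than in P7 precursors, and Bmpr1a, Bmpr2, Smad1 and Smad5 were not called. Over all genes tested 34.5% were called in MB against P7, 20.7% as lower. Against P14 the same 6 genes were lower and Bmpr1a was higher, where 50.0% of all genes were called, 27.2% as lower and 22.9% as higher. The 2 comparisons share the MB libraries. The median log2 change of the 10 genes was -1.39 against P7 and -1.69 against P14, and 0.02 and 0.01 over all genes. Libraries did not overlap for 8 of the 10 genes in each, against 41.6% and 61.4% of all genes.

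Bmp6 had the largest fitted fall of the 10 genes against P7, and Bmp4 against P14. Bmp6 was at 0.198, 0.513 and 0.280 CPM in the 3 MB libraries, 33 counts in all, where the lowest precursor library had 8.06 CPM. No MB library came near any precursor library of any age. The log2 change was -5.31 ± 0.40 against P7 (FDR 1.71e-07) and -5.81 ± 0.41 against P14 (FDR 7.49e-08). The scaled counts were 38.2 times higher at P7 than in MB (95% interval of counting error 27.0 to 55.7) and 33.8 times higher at E15.5 than in MB (23.9 to 49.5).

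Bmp4 was at 0.159, 0.391 and 0.160 CPM in MB, 24 counts in all, close to its 0.0525 to 0.167 CPM at E15.5. Those groups overlapped, and all P1, P7 and P14 libraries lay above both. The log2 change was -5.05 ± 0.50 against P7 (FDR 2.08e-06) and -5.84 ± 0.51 against P14 (FDR 4.46e-07). Bmp2 was at 0.198, 0.537 and 0.320 CPM in MB, below every precursor library, with -2.27 ± 0.52 against P7 (FDR 0.00309) and -3.00 ± 0.52 against P14 (FDR 0.00023). Bmp7 was at 2.06, 5.47 and 3.84 CPM in MB, below every postnatal library and overlapping E15.5. Its log2 change was -1.53 ± 0.35 against P7 (FDR 0.003) and -2.07 ± 0.35 against P14 (FDR 0.000191).

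Bmpr1b was at 11.9, 6.72 and 8.65 CPM in MB, below every postnatal library and overlapping E15.5. It fell by 1.26 ± 0.28 on the log2 scale against P7 (FDR 0.00286) and by 1.32 ± 0.29 against P14 (FDR 0.00131). Within a single counting set, where MB replicate 1 alone stands for the tumour and is assumed to vary like the other groups, the change against P7 was -0.87 and was not called (FDR 0.0717). Bmpr1a was at 277, 155 and 143 CPM in MB, with replicate 1 highest of all 15 libraries. Its log2 change against P14 was 0.64 ± 0.25 (FDR 0.0435), and 0.28 without MB replicate 1 (FDR 0.287), which also stood apart in that it belonged to the other counting set. It was also not called without P14 replicate 1 (FDR 0.0866), P14 replicate 2 (FDR 0.0979) or P14 replicate 3 (FDR 0.104). Against P7 Bmpr1a changed by 0.06 ± 0.25 and was not called. Bmpr2 was at 84.2, 62.9 and 61.9 CPM in MB, below all 3 P7 libraries, with a log2 change of -0.58 ± 0.31 that was not called (FDR 0.169).

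Smad6 was at 0.516, 0.537 and 0.200 CPM in MB, below every precursor library of every age. It fell by 2.26 ± 0.47 on the log2 scale against P7 (FDR 0.00149) and by 3.53 ± 0.48 against P14 (FDR 2.52e-05). Smad1 at 93.0, 74.6 and 73.3 CPM and Smad5 at 132, 125 and 150 CPM in MB were not called. The log2 change against P7 was 0.06 ± 0.14 for Smad1 and -0.17 ± 0.14 for Smad5, with 95% intervals of -0.25 to 0.38 and -0.49 to 0.15.

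**Figure D4:**
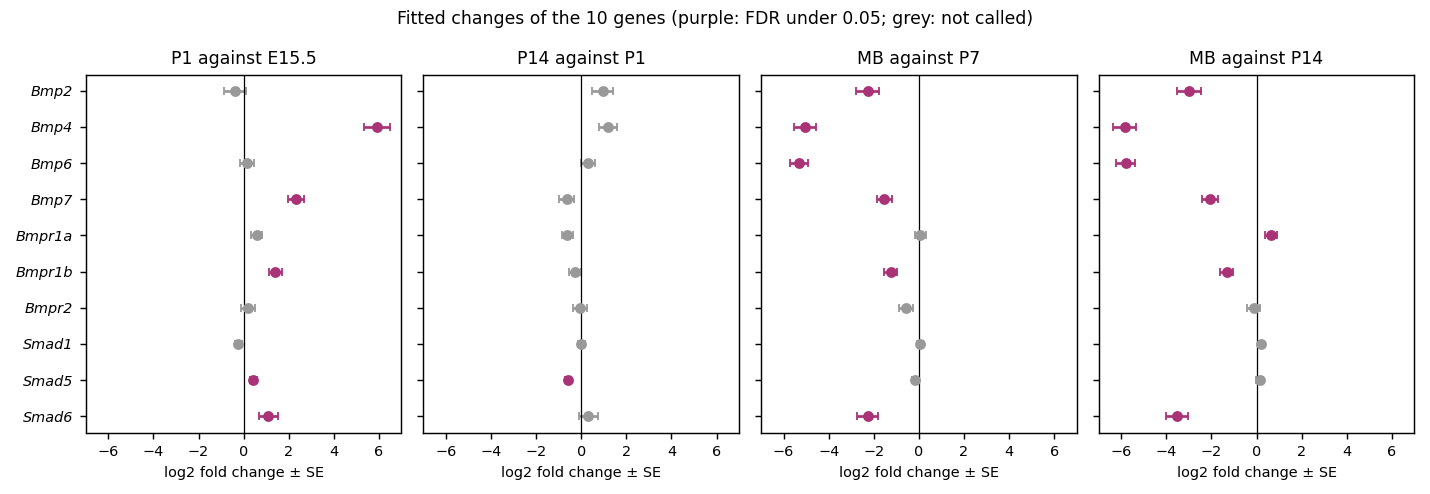
Fitted log2 fold changes of the 10 genes in 4 comparisons, from the edgeR fit to all libraries. Points are estimates, bars are standard errors, purple marks an FDR under 0.05 and grey the rest. At P1 against E15.5, 5 genes are purple, all to the right. The 4 ligands, Bmpr1b and Smad6 are purple and to the left in both MB comparisons.

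The same lists of other cell types differed between MB and the postnatal precursors. All 8 endothelial markers and 8 of 9 markers of pericytes and meningeal fibroblasts were lower in MB than at P7, at summed levels of 20.2 to 35.6 CPM and 28.4 to 38.4 CPM, and 6 of 7 GABAergic interneuron and 5 of 7 Purkinje cell markers were lower. The Purkinje cell marker Skor2 was at 0 in all MB libraries. Astroglial markers were 5 lower and 2 higher of 8, oligodendrocyte lineage markers 6 lower and 2 higher of 10, choroid plexus markers 1 lower of 7, granule neuron markers 3 lower of 6 (6 of 6 against P14) and microglial markers 5 higher and 0 lower of 9. Against P14 all 8 endothelial and all 9 pericyte or meningeal markers were lower. So were 5 of 7 choroid plexus and 5 of 8 astroglial markers, with 0 higher. Of oligodendrocyte lineage markers 6 were lower and 2 higher there, and of microglial markers 1 and 5. The choroid plexus sum was 52.1 to 2022 CPM at P7 and 5185 to 8576 CPM at P14. The oligodendrocyte lineage sum was 981 to 1911 CPM and 5921 to 6335 CPM. The part of these cells in the lower levels of Bmp2, Bmp4, Bmp6, Bmp7, Bmpr1b and Smad6 was not tested. Nor was their part in differences between P7 and P14. In the E15.5 libraries, which also differ from MB in age and genotype and in an astroglial sum of 309 to 441 CPM against 1609 to 2066 CPM, the endothelial and pericyte or meningeal sums were 12.2 to 35.7 CPM and 23.8 to 41.4 CPM, in the range of MB or close to it, and these libraries held 8.06 to 19.6 CPM of Bmp6, 1.31 to 2.92 CPM of Bmp2 and 1.17 to 2.27 CPM of Smad6. Several markers of Purkinje cells and GABAergic interneurons differed widely between E15.5 and MB. Pax2 was at 87.5 to 139 CPM at E15.5 and 0 to 0.0244 CPM in MB, Gad1 at 103 to 147 and 0.961 to 2.26 CPM, and Calb1 at 27.2 to 56.5 and 0.159 to 0.244 CPM. The summed levels in MB, 320 to 374 CPM for GABAergic interneurons and 86.1 to 177 CPM for Purkinje cells, were carried mainly by Lhx1 (mean 353 CPM) and Foxp2 (mean 82.5 CPM).

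Of 45 other genes of the pathway, 41 were tested. In P1 against E15.5, 20 were called higher and 7 lower, with a median log2 change of 0.49 against 0.03 over all genes. In MB against P7, 3 were higher and 16 lower, with a median of -0.75 against 0.02. In MB against P14, 6 were higher and 20 lower, with a median of -0.85 against 0.01. At the later ages 1 was higher and 1 lower in P7 against P1, 3 and 2 in P14 against P7, and 2 and 4 in P14 against P1, beside 3.15%, 10.3% and 8.94% of all genes called in either direction. Those at P1 against E15.5 stand beside 25.4% of all genes higher and 20.9% lower, and those in MB against P7 beside 13.7% higher and 20.7% lower. For MB against P14 the shares were 22.9% and 27.2%.

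Of the other ligands, 6 of 9 were tested. Bmp5 rose from 0.572 to 18.7 CPM between E15.5 and P1 (log2 change 5.02 ± 0.91, FDR 0.000429) and Gdf7, a roof plate ligand, from 0.117 to 2.04 CPM (4.28 ± 1.25, FDR 0.0115). Bmp5 was at a mean of 8.46 CPM in MB and 24.6 CPM at P7, a difference that was not called (FDR 0.12). Its libraries overlapped, at 0.873 to 22.0 CPM in MB against 15.1 to 35.1 CPM at P7. Bmp3, named after its values were seen, was the single other ligand higher in MB than at P7, at 0.878 against 0.228 CPM with overlapping libraries (1.96 ± 0.58, FDR 0.0161). Among the other receptors, the type I receptor Acvr1 rose from 25.8 to 36.1 CPM between E15.5 and P1 (0.49 ± 0.17, FDR 0.0279), and the type II receptor Acvr2a was at 120 and 87.8 CPM and was not called (FDR 0.166). The vascular receptors Acvrl1 and Eng, both expressed in endothelium, rose from E15.5 to P1 by 3.96 ± 0.44 and 4.18 ± 0.42 on the log2 scale (FDR 7.05e-06 and 2.95e-06) and from P7 to P14 by 1.57 ± 0.38 and 1.20 ± 0.37 (FDR 0.0223 and 0.0494). They were lower in MB than at P7, by -2.29 ± 0.40 and -3.11 ± 0.40 (FDR 0.000406 and 2.39e-05). All 8 endothelial markers were called in the same directions in P1 against E15.5 and in MB against P7, and their part in these changes was not tested. Acvr2b, a type II receptor, was higher in MB than at P14, by 0.97 ± 0.38 with overlapping libraries (FDR 0.0422). The co-receptors Rgma and Rgmb, which present BMPs to their receptors, were higher in MB than at P7, by 1.48 ± 0.33 (FDR 0.00259) and 1.26 ± 0.31 (FDR 0.00502). Rgma libraries did not overlap, at 126 to 424 CPM in MB against 79.8 to 126 CPM at P7, whereas Rgmb libraries did, at 60.8 to 183 CPM against 44.4 to 65.9 CPM. Rgmb had fallen from 198 CPM at E15.5 to 84.3 CPM at P1 (-1.23 ± 0.31, FDR 0.00441).

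Smad4, the shared partner, was at 127 ± 14.2 CPM at E15.5 and rose to 188 ± 9.52 CPM at P1 (SD, n = 3; log2 change 0.57 ± 0.14, FDR 0.00388). Smad7, the other inhibitory Smad, was at 25.5 ± 8.85 CPM at P7 and 8.32 ± 3.15 CPM in MB (log2 change -1.61 ± 0.31, FDR 0.000769). Smad9, a further signal-carrying Smad, rose from 2.50 to 6.07 CPM between E15.5 and P1 (1.32 ± 0.40, FDR 0.0133).

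The extracellular antagonists, which bind ligands and keep them from receptors, had 4 of 12 tested members higher and 4 lower in P1 against E15.5, beside 25.4% and 20.9% of all genes. Fst fell by 1.80 ± 0.42 (FDR 0.00281), Grem1 by 1.56 ± 0.29 (FDR 0.000558) and Nbl1 by 1.08 ± 0.28 (FDR 0.00577), while Chrdl2 rose by 4.71 ± 0.60 (FDR 2.29e-05) and Sostdc1 by 4.39 ± 1.24 (FDR 0.0092), all on the log2 scale. Sostdc1 libraries overlapped between E15.5 and P1, and it ran from 3.26 to 80.6 CPM among the P1 libraries. Fstl1 fell from 175 CPM at P1 to 104 CPM at P7 (-0.75 ± 0.17, FDR 0.0314). Between P7 and P14, Chrdl1 fell by 1.03 ± 0.26 (FDR 0.0237) and Fst by 2.90 ± 0.50 (FDR 0.00861). In P14 against P1 all of these were lower: Fstl1 by -0.80 ± 0.17 (FDR 0.0141), Chrdl1 by -1.12 ± 0.26 (FDR 0.0194) and Fst by -4.47 ± 0.51 (FDR 0.000327). In MB against P7, 6 of 12 were lower and 0 higher, Chrdl2 by -3.95 ± 0.53 (FDR 3.95e-05) and Sostdc1, with overlapping libraries, by -4.03 ± 1.32 (FDR 0.0271) among them. Against P14, Chrdl1 was higher in MB, by 1.24 ± 0.26 (FDR 0.000957). Noggin (Nog) went from 2.49 ± 1.37 CPM at P7 to 0.535 ± 0.0546 CPM in MB (SD, n = 3; log2 change -2.22 ± 0.39, FDR 0.000373). In the group of membrane and intracellular inhibitors, the ubiquitin ligase Smurf1 rose from P1 to P7 by 0.61 ± 0.14 (FDR 0.0318) and stood 0.54 ± 0.14 above P1 at P14 (FDR 0.0309), Tob1 was higher at P14 than at P1 by 0.88 ± 0.20 (FDR 0.0173), and 2 of 6 were lower in MB than at P7.

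Of 7 target genes, 4 were higher at P1 than at E15.5: Id1 (log2 change 2.33 ± 0.41, FDR 0.000355), Id3 (3.12 ± 0.57, FDR 0.000464), Msx1 (2.45 ± 0.65, FDR 0.00659) and Msx2 (1.41 ± 0.36, FDR 0.00558). Id proteins hold back neuronal basic helix-loop-helix factors, and Msx genes encode homeobox repressors. Msx1 was also higher at P14 than at P7, by 2.15 ± 0.63 (FDR 0.0432). In MB against P7, 4 of 7 were lower: Msx1, Msx2, Id4 and Atoh8. Of these, Id4 and Atoh8 were named after their values were seen. Msx2 had 3 counts in all of MB and 1859 at P7, a ratio of scaled counts of 586 with an exact 95% interval of counting error of 200.1 to 2843. Msx1 was at 3.16 to 11.4 CPM at P7 and 0.0793 to 0.66 CPM in MB (log2 change -4.24 ± 0.76, FDR 0.00049), and Id4 fell by 3.77 ± 0.33 (FDR 6.92e-07). Id1 (-0.42 ± 0.39, FDR 0.436), Id2 (-0.02 ± 0.32, FDR 0.978) and Id3 (-1.40 ± 0.53, FDR 0.0533) were not called in MB against P7. Whether the changes of Id1 and Id4 differ was not tested.

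**Figure D5:**
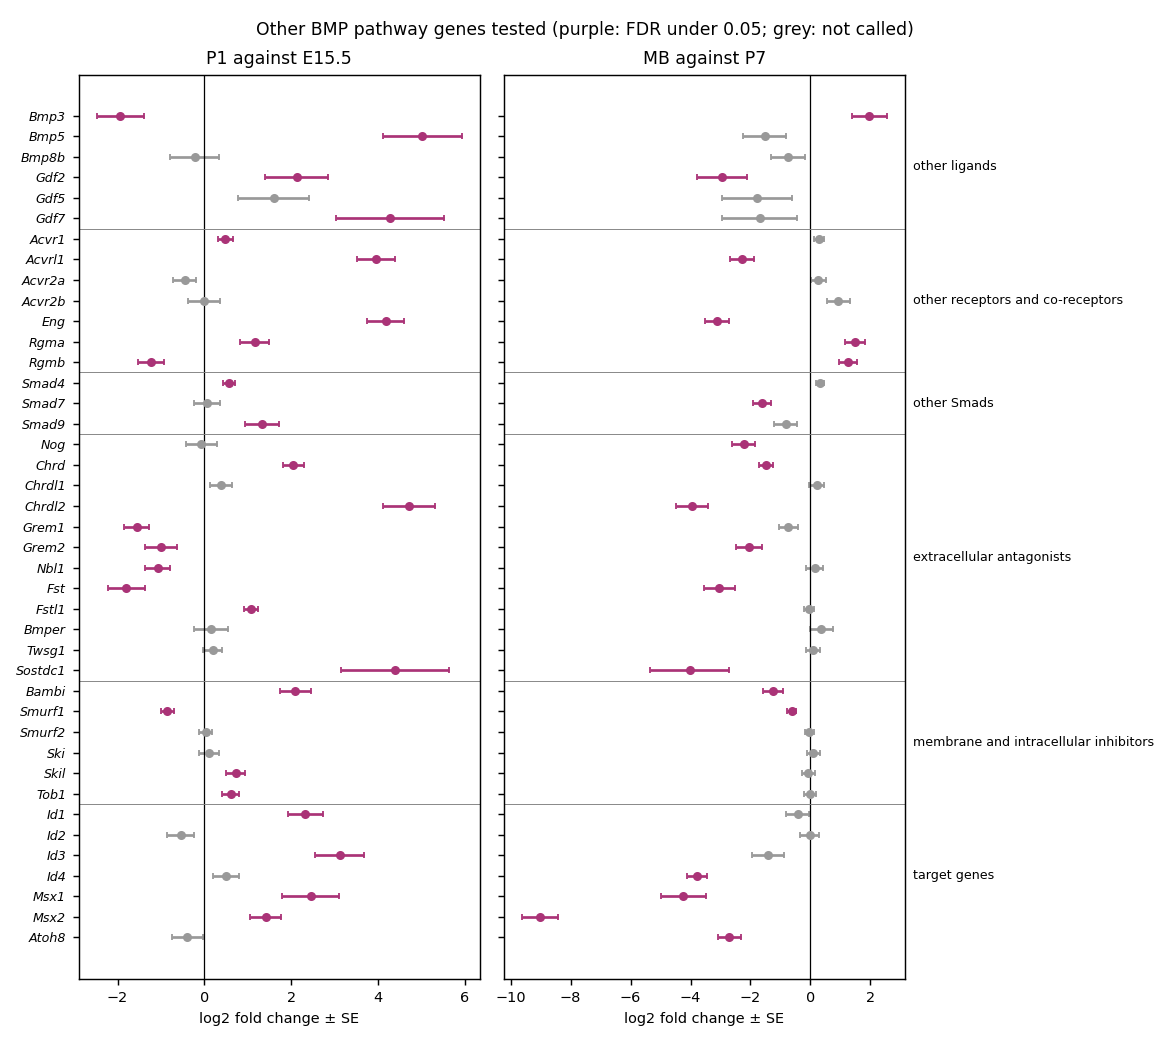
Fitted log2 fold changes of the 41 other tested BMP pathway genes, by role, for P1 against E15.5 and MB against P7. Points are estimates, bars are standard errors, purple marks an FDR under 0.05; the target genes Msx1, Msx2, Id4 and Atoh8 lie far to the left in MB, while Rgma and Rgmb lie to the right.

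The genes whose log2 CPM followed each of the 10 most closely over the 15 libraries were listed as a description. The points share library depth, scaling and the large MB and E15.5 differences. For Bmp4 they were Tbx3, Plppr4 and Flvcr2 (Pearson r of 0.98 each), and for Bmp2 they were Plk2, Plch2 and Dync1i1 (0.94 to 0.95). For Bmp6 they were Frmpd4 (0.99) and the Y-linked genes Uty and Kdm5d (0.98 each), which are at 0 in all 3 MB libraries. For Bmp7 they were Lrrc23, Atp7b and Dnah6 (0.94 to 0.95), and for Smad6 Plekhg5, Slc9a3r1 and Msx1 (0.95 to 0.97). For Bmpr1a the closest was Fam135a (0.97), for Bmpr1b Bche (0.94), for Bmpr2 Baz2a (0.95), for Smad1 Nrd1 (0.89) and for Smad5 Arhgap28 (0.83).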

How the data were processed

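For each of the 15 libraries, 3 tables of unnormalized counts were deposited by the authors: per gene, per transcription start site model and per transcript. The submitters' processing notes name Trimmomatic, TopHat, StringTie and HTSeq, and the genome build mm9. Versions, the strand setting and how tools and tables relate are not given in the sources used here. The gene count table was the main one, and lines that name no gene were left out. Between 39.5% and 55.4% of a library's records were counted in genes.

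Genes were filtered with filterByExpr (minimum count 10, minimum total 15), scaled by TMM and fitted with edgeR 4.0.16 in R 4.3.3, with 1 mean per group over all 15 libraries (10 residual degrees of freedom). Quasi-likelihood tests were adjusted by Benjamini-Hochberg over 15259 genes. The fit was tested on counts simulated from its own group means and spread, for P14 against P1 only. No result here rests on that test. The SE of a log2 change is its size over the root of the F statistic, and its 95% interval uses 10 degrees of freedom. Counting intervals are exact and cover counting error only. Alternatives were DESeq2 1.42.0, other scaling, no filter, a replicate block, the other tables, groups fitted alone, 1 counting set at a time and leaving out each library.

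The 10 genes and all lists were chosen with earlier results of these data known. All 10 genes are named. Other pathway genes are named when called with a mean of at least 1 CPM and among the 4 largest changes in a direction of a comparison, and Smad4, Smad7, Smad9, Acvr1, Acvr2a, Nog, Id1, Id2 and Id3 in any case. Same-numbered replicates were not taken as pairs. Upstream sequences are from RefSeq, GRCm38.p6, which gave windows for 8 of the 10 genes.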

Additional observations from a re-analysis of the deposited data

How the results depend on the processing

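Of 989 values of single genes under the alternatives, 941 kept their side of the threshold, 31 lost a call, 17 gained one and 0 called values changed sign. Of 19 called changes, 14 were called in every alternative run. Counts of the 10 genes called moved as follows. The table of start site models, in which 7 of the 10 genes could be matched, called 3 in the 4-age test, 2 in P1 against E15.5, 3 in MB against P7 and 4 in MB against P14. Within a single counting set, 3 were called in P1 against E15.5 and 3 in P14 against P1. DESeq2 called 1 in P7 against P1, 1 in P14 against P7 and 2 in P14 against P1. With the groups fitted alone, 3 were called in P14 against P7 and 2 in P14 against P1. Leaving out each library in turn gave 3 to 6 in the 4-age test, 3 to 4 in P1 against E15.5, 0 to 1 in P7 against P1 and 0 to 2 in P14 against P1. The cause was not tested. With a replicate block, 6 were called in the 4-age test, with Bmpr1a gained (FDR 0.0451), and 5 in P1 against E15.5, with Bmpr1a gained (FDR 0.0463) and Smad6 lost (FDR 0.0767), and no other call of the 10 genes changed. Same-numbered libraries correlated from -0.31 to 0.33 in their deviations, and not every library correlated best with its own number. Same-numbered libraries were not treated as pairs, and the labels do not say whether they share a litter or day. Levels of Bmp2, Bmp4, Bmp6 and Smad6 in MB rest on 24 to 40 counts, and Bmp4 at E15.5 on 7, so their folds are the least precise. Strand is not stated, and 89 bases of the Bmp4 model overlap a model on the other strand.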

Other observations

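Genes of the neighbouring TGF-beta and activin arm, whose receptors signal through Smad2 and Smad3, were also measured, and all 5 were tested. They were named after their values were seen. Smad3 was the single gene of the 5 called in MB against P7, at 191 CPM in MB and 48.8 CPM at P7 (log2 change 1.97 ± 0.25, FDR 2.56e-05). Against P14 it was higher in MB by 1.64 ± 0.25 (FDR 7.17e-05), Smad2 by 0.66 ± 0.15 (FDR 0.00227), and Tgfbr2 was lower by 1.61 ± 0.30 (FDR 0.000425). The type II receptor Tgfbr2 rose from 1.69 CPM at E15.5 to 41.4 CPM at P1 (log2 change 4.60 ± 0.36, FDR 3.6e-07). Most or all endothelial, pericyte or meningeal, astroglial, oligodendrocyte lineage, microglial and choroid plexus markers were called higher in the same comparison. The part of these cells in the rise of Tgfbr2 was not tested. Smad2 fell by 0.43 ± 0.15 (FDR 0.0313) and Acvr1b by 0.61 ± 0.19 (FDR 0.0184) over the same step, while Smad3 rose by 0.78 ± 0.25 (FDR 0.0178).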
